A study of Homo sapiens with 2 samples.

Results

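The nuclear genes for subunits of respiratory complexes II to V, with cytochrome c, were followed in cells given iMQT_020 and in cells given vehicle. The rule takes genes by symbol and biotype, namely the 4 SDH genes, CYC1, CYCS and every protein-coding gene whose symbol begins with UQCR, COX4, COX5, COX6, COX7, COX8 or ATP5, without hyphenated read-through genes. This gave 51 of the 46427 gene rows: 4 of complex II, 10 of complex III, CYCS, 17 of complex IV and 19 of complex V. The iMQT_020 group was 1 library of cells exposed for 48 hours to a compound that the labels call an inhibitor of the mitochondrial glutamine transporter, and the vehicle group was 1 library of cells of the same label exposed to vehicle for 48 hours. No genotype, dose or vehicle composition is given in the sources used here, and the comparison addresses how the transcriptome differs after exposure.

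Both libraries are labelled MiaPaca2, a pancreatic cancer cell line, but some marker genes went against that label. CDKN2A, a gene deleted in that line, stood at 208 TPM in the iMQT_020 library and 278 TPM in the vehicle library (TPM, a level scaled by transcript length and library total). MTAP, its neighbour and also deleted in that line, was at 26.2 and 33.7 TPM, and CD44, which that line is known to express, had 3 and 16 counts. ANXA1, also expected to be abundant, was low at 2.74 and 3.13 TPM. VIM, likewise expected, went with the label at 438 and 403 TPM. Of the epithelial keratins, KRT8 was at 92.3 and 128 TPM, KRT18 at 77.5 and 97.4 TPM, and KRT19 had 0 counts in both libraries. Of 10 markers of other cell types 7 were not measured, with PTPRC, CD3E, DCN and MYH7 at 0 in both libraries. Also below the minimum, PECAM1 had 29 counts in the iMQT_020 library and 0 in the vehicle library, CDH5 had 4 and 3, and CKM had 29 and 31. COL1A1 had 1624 counts in the iMQT_020 library and 2797 in the vehicle library, ACTA1 had 131 and 39, and CD68 had 64 and 51, and their part in the results was not tested. The cells are therefore called only by their treatment. The libraries held 59139157 (iMQT_020) and 67095283 (vehicle) estimated counts. There were no replicates, so no difference below has a replicate check no p-value could be given, and the treatment and any other difference between the libraries cannot be told apart. Intervals are exact 95% intervals of the count ratio (Clopper-Pearson) and cover counting error only, and in bulk RNA fewer expressing cells and less RNA per cell cannot be told apart.

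Complex II oxidises succinate and passes the electrons to ubiquinone, complex III passes them to cytochrome c, and complex IV passes them to oxygen. Complexes III and IV pump protons, and complex V, the ATP synthase, uses the resulting gradient to make ATP. Complex II is built from nuclear genes alone, whereas complexes III, IV and V each combine nuclear subunits with a few encoded by mitochondrial DNA. The transcription factor NRF1, the ETS factor GABP and YY1 are known to bind promoters of many of the nuclear genes.

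Promoter windows of 300 bases (250 before and 50 after the annotated start) were read from the RefSeq table of GRCh38.p14, which matched 39 of the 51 genes. A set of 4 is shown because it spans the order of ratios described below, from UQCR11 near its low end to SDHD near its high end, and holds each motif searched. Capitals mark matches on either strand to GCATGCGC (the NRF1 core), CCGGAAGT (an ETS motif) or AAGATGGC (a YY1 motif). Overlapping matches are joined.
UQCR11, chr19:1605413-1605712, minus strand: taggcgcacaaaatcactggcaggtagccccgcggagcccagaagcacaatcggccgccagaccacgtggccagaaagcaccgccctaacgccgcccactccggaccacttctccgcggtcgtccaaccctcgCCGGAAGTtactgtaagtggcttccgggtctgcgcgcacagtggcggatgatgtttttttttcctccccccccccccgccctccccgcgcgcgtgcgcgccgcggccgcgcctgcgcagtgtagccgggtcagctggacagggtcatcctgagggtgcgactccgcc
UQCRC1, chr3:48609597-48609896, minus strand: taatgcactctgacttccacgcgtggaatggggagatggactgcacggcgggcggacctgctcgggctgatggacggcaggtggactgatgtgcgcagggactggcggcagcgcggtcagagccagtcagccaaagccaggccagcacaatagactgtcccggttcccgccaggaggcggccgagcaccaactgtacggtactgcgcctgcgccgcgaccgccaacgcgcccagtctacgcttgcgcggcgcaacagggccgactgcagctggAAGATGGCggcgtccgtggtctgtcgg
ATP5F1C, chr10:7787927-7788226, plus strand: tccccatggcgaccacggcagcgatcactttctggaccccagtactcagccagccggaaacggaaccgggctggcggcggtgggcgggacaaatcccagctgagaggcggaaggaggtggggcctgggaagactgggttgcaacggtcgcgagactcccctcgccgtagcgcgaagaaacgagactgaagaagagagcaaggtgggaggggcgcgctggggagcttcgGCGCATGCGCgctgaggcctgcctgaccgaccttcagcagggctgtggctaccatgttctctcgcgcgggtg
SDHD, chr11:112086623-112086922, plus strand: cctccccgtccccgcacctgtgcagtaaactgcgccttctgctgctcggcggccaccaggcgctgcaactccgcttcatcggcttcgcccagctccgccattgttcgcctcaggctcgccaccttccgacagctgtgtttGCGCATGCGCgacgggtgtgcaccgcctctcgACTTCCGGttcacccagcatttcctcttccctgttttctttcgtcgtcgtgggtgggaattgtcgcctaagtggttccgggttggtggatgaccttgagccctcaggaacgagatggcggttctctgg

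The NRF1 core was in 22.2% of the 45 promoter windows of these genes and in 3.05% of all 35116 windows. The ETS motif was in 22.2% of the subunit windows and 4.14% of all windows, and the YY1 motif in 13.3% and 2.89%. Subunit genes with an NRF1 core (9 measured) had a median log2 ratio, iMQT_020 over vehicle, of −0.14, and those without (26) had −0.17. With the ETS motif (10) and without it (25) the medians were −0.18 and −0.15, and with the YY1 motif (5) and without it (30) they were −0.10 and −0.17. The medians with and without each motif thus differed by less than 0.1. A match of letters is no evidence of binding, and start sites were not measured here.

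Of the 51 genes, 44 reached 50 counts in 1 library or both and are called measured. The other 7 were COX4I2, COX6A2, COX7A1, COX7B2 and COX8C, at 0 counts in both libraries, ATP5MGL with 0 counts (iMQT_020) and 1 (vehicle), and COX6B2 with 16 (iMQT_020) and 27 (vehicle). A count of 0 allows up to 3 counts, or 0.0506 CPM in the iMQT_020 library and 0.0448 CPM in the vehicle library. The 51 genes together took 1.51% of all TPM in the iMQT_020 library and 1.64% in the vehicle library.

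Nearly all measured genes were slightly lower in the iMQT_020 library. The log2 ratio of scaled counts was below 0 for 41 of 44 genes (93.2%), against 52.7% of the 14805 genes measured in all and 50.7% of those with at least 1000 counts. The median was −0.17, against −0.02 over all measured genes, and the quartiles of the subunit genes were −0.22 and −0.10, against −0.27 and 0.22 over all. Over the genes with at least 1000 counts the quartiles were −0.21 and 0.20. The subunit genes were thus gathered in a narrow band below 0. None was 2-fold apart, against 5.23% of all measured genes (3.09% lower and 2.15% higher). Such genes were fewer among the 9312 with at least 1000 counts, where 89 were 2-fold lower and 30 were 2-fold higher. At least 20% lower were 7 genes (15.9%), no larger a share than the 21.8% of all genes or the 15.9% of those with at least 1000 counts. No subunit gene was at least 25% higher, against 17.4% of all genes and 1313 of the 9312 with at least 1000 counts. The counting interval lay wholly below 0 for 40 genes, against 39.1% of all genes, and wholly above 0 for none, against 35.0%. It reached across 0 for UQCRB, UQCRFS1, SDHD and UQCRHL.

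**Figure D1:**
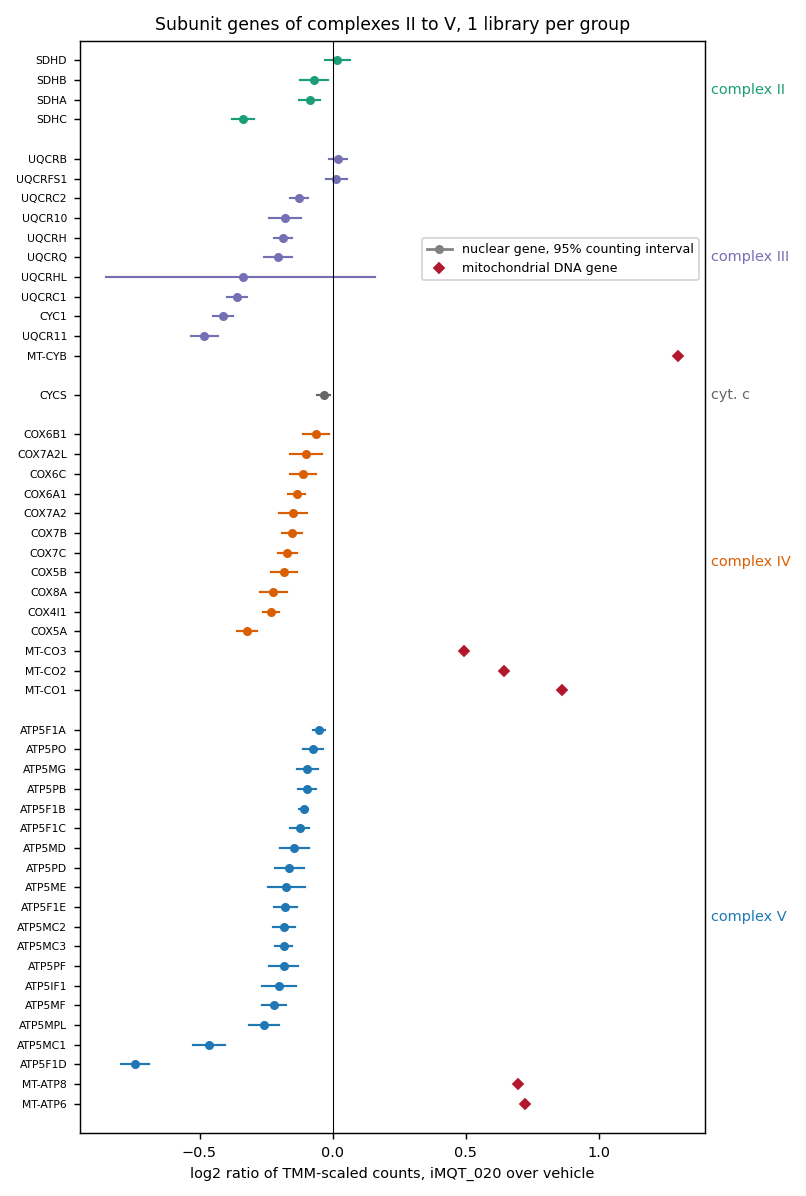
Log2 ratio of TMM-scaled counts, iMQT_020 over vehicle, for the 44 measured nuclear subunit genes (circles, with 95% counting intervals) and the 6 subunits of complexes III to V encoded by mitochondrial DNA (diamonds), 1 library per group. The nuclear genes lie between −0.74 and 0.02, and the mitochondrial DNA genes between 0.49 and 1.30.

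Complex II had the median nearest to 0 among the complexes, −0.08 over 4 genes. SDHA, the flavoprotein that oxidises succinate (chromosome 5, 218320 to 268746, GRCh38), had 10144 counts in the iMQT_020 library and 12173 in the vehicle library, a log2 ratio of −0.09 (−0.12 to −0.05), with 96.6 and 107 TPM. It has near-identical transcribed copies, so its counts are uncertain. SDHB, the iron-sulphur subunit (chromosome 1, 17018722 to 17054032), had 5390 and 6396 counts, at −0.07 (−0.12 to −0.02), with 208 and 211 TPM. Both ratios were small by counts, and by FPKM the log2 ratio of SDHA was −0.18, with 38.5 FPKM in the iMQT_020 library and 43.8 FPKM in the vehicle library.

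The membrane anchors of complex II stood at opposite ends. SDHC (chromosome 1, 161314381 to 161363206) had 8504 counts (iMQT_020) and 12133 (vehicle), at −0.34 (−0.38 to −0.30). SDHD (chromosome 11, 112086873 to 112095794) had 6920 and 7728, at 0.02 (−0.03 to 0.06). The distance between the anchors depended on the unit. SDHC was at 64.0 TPM in the iMQT_020 library and 69.1 TPM in the vehicle library, a log2 ratio of TPM of −0.11, and SDHD was at 201 and 192 TPM, at 0.06. SDHC has 6 annotated transcripts in the deposited table and SDHD has 5.

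Complex III had a median of −0.20 over 10 genes and held 4 of the 7 that were at least 20% lower. UQCR11, a small subunit of the complex (chromosome 19, 1597169 to 1605462), had 5060 counts in the iMQT_020 library and 7983 in the vehicle library, at −0.48 (−0.53 to −0.43), with 153 and 206 TPM. CYC1, cytochrome c1 (chromosome 8, 144095076 to 144097525), had 9573 and 14396 counts, at −0.41 (−0.45 to −0.37), with 312 and 397 TPM. UQCRC1, a core subunit (chromosome 3, 48599002 to 48609646), had 10129 and 14673 counts, at −0.36 (−0.40 to −0.32), with 247 and 307 TPM. These 3 genes were lower with counts and with TPM alike, and the other of the 4 was UQCRHL, whose interval reached across 0.

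The other core subunit and the Rieske protein were nearer to 0. UQCRC2 had 12591 counts (iMQT_020) and 15521 (vehicle), at −0.13 (−0.16 to −0.09). UQCRFS1, the Rieske iron-sulphur protein, had 9386 and 10501, at 0.01 (−0.03 to 0.05), and UQCRB had 13893 and 15484, at 0.02 (−0.01 to 0.05). The counting intervals of the catalytic subunits CYC1 and UQCRFS1 did not overlap. Centred on GC content and length, as described below, CYC1 was at −0.10 and UQCRFS1 at −0.08, so that gap was nearly gone, and UQCRB was at −0.25. UQCRH, the hinge protein, had the highest TPM of the complex, at 832 in the iMQT_020 library and 918 in the vehicle library, with a count ratio of −0.19. It had 11637 and 14957 counts, fewer than UQCRB or UQCRC2. Its intronless copy UQCRHL had 58 and 83 counts, at −0.34 (−0.85 to 0.16), and reads of such close copies are hard to separate. UQCRQ, another small subunit, had 4948 and 6449 counts, at −0.21 (−0.26 to −0.15), with 123 and 138 TPM, and UQCR10 was at −0.18. The gene span of UQCRQ overlaps GDF9, which had 89 and 42 counts.

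CYCS, the mobile carrier between complexes III and IV, had 24967 counts in the iMQT_020 library and 28860 in the vehicle library, at −0.03 (−0.06 to −0.01). Its levels were 180 and 178 TPM, a log2 ratio of 0.01, so its sign differed between counts and TPM. The median of all measured genes also changed sign, from −0.02 by counts to 0.02 by TPM. CYCS has many pseudogenes, and reads shared with them cannot be placed with certainty.

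**Figure D2:**
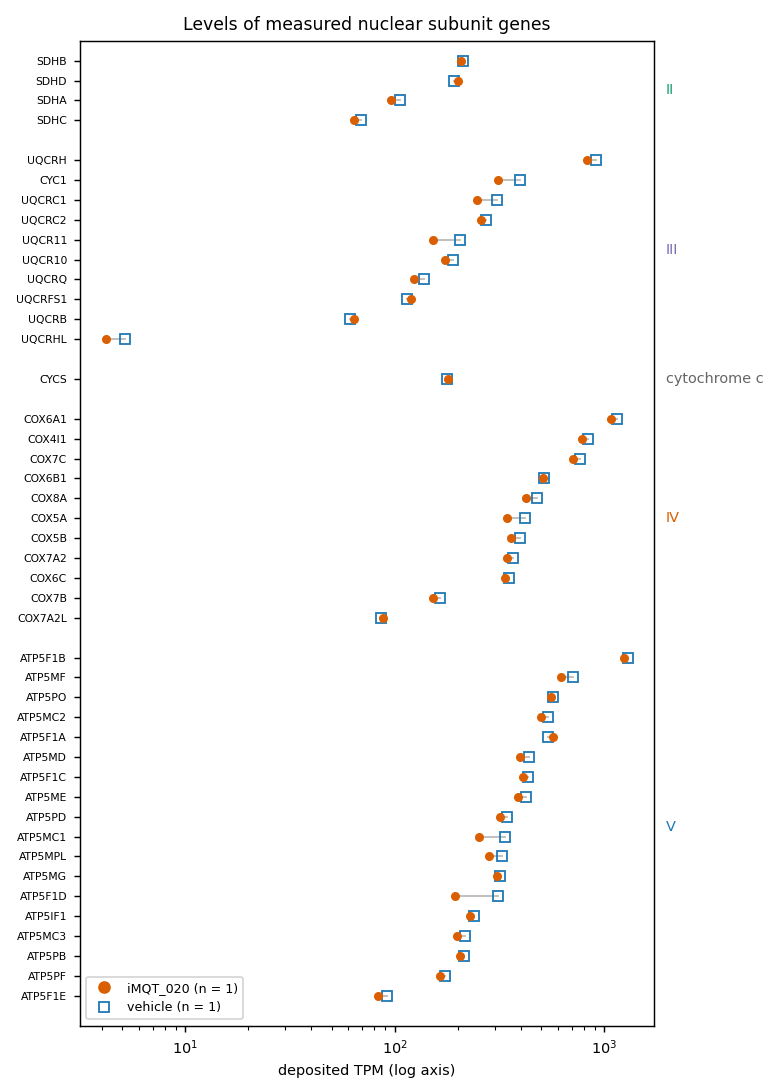
Deposited TPM (log axis) of the 44 measured nuclear subunit genes, ordered within each complex by the vehicle level, in the iMQT_020 library (filled circles) and the vehicle library (open squares), n = 1 each. The order of levels within a complex is much the same in both libraries, and the widest gap is at ATP5F1D, at 194 and 312 TPM.

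All 11 measured genes of complex IV were below 0 by counts, against 52.7% of all measured genes, and 10 were by TPM, against 47.6%. By counts they lay within a narrow range of −0.32 to −0.06, with a median of −0.15. COX5A was lowest (chromosome 15, 74919791 to 74938073), with 10318 counts in the iMQT_020 library and 14573 in the vehicle library, −0.32 (−0.36 to −0.29), just short of 20% lower, with 344 and 417 TPM. COX4I1 had 15401 and 20438 counts, at −0.23 (−0.26 to −0.20). COX8A had 5333 and 7030, at −0.22 (−0.27 to −0.17). These are structural subunits that surround the catalytic core made by mitochondrial DNA. COX5B had 6363 and 8161 counts, at −0.18 (−0.23 to −0.14), with 361 and 397 TPM. COX7C had 11350 and 14440, at −0.17 (−0.21 to −0.14), with 707 and 770 TPM. COX6B1, the least different, had 6359 and 7500, at −0.06 (−0.11 to −0.01). No gene of the complex was at least 20% lower.

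Complex IV is known for subunits that come in general and tissue-restricted isoforms, and these cells expressed the general ones. COX6A1, the highest gene of the complex by TPM, was at 1083 TPM (iMQT_020) and 1151 TPM (vehicle), while COX6A2, its heart and muscle counterpart, was at 0. COX4I1 was at 782 and 834 TPM while COX4I2, the isoform known from lung, was at 0. COX7B and COX8A were at 152 and 423 TPM in the iMQT_020 library, against 164 and 478 TPM in the vehicle library, while their testis counterparts COX7B2 and COX8C were at 0. COX6B1 made up 99.9% of the TPM of the COX6B pair in both libraries. COX7A2 was at 343 and 368 TPM and its heart and muscle counterpart COX7A1 at 0. COX7A2L, a related protein that joins complexes III and IV into supercomplexes, was at 88.2 TPM in the iMQT_020 library and 85.8 TPM in the vehicle library, but its count ratio was −0.10 (−0.16 to −0.04).

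All 18 measured genes of complex V were below 0 by counts, with a median of −0.18, and 17 were below 0 by TPM. Of all measured genes, 52.7% were below 0 by counts and 47.6% by TPM. ATP5F1D, the delta subunit of the F1 central stalk (chromosome 19, 1241751 to 1244825), was the lowest of all 44 genes. It had 4422 counts in the iMQT_020 library and 8368 in the vehicle library, 0.597 times the vehicle level after scaling (log2 ratio −0.74, −0.80 to −0.69), with 194 and 312 TPM and 77.3 and 128 FPKM. The other F1 subunits were closer to 0. ATP5F1B, the catalytic beta subunit and the most abundant of all, had 55958 and 68196 counts, at −0.11 (−0.13 to −0.09), with 1246 and 1301 TPM. ATP5F1C and ATP5F1E, which form the central stalk with ATP5F1D, were at −0.12 (−0.16 to −0.09) and −0.18 (−0.22 to −0.13). The counting interval of ATP5F1D overlapped neither of these, but with ratios centred on GC content and length ATP5F1D was at −0.30, ATP5F1E at −0.28 and ATP5F1C at −0.02. ATP5F1A, the alpha subunit, had 29721 and 34756 counts, at −0.05 (−0.07 to −0.03), but 568 TPM in the iMQT_020 library and 537 TPM in the vehicle library.

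The ring of c subunits is encoded by 3 genes, known to give the same mature protein after different import sequences are removed. ATP5MC1 had 3802 counts (iMQT_020) and 5926 (vehicle), at −0.46 (−0.52 to −0.41), with 252 and 335 TPM. ATP5MC2 had 8566 and 10988, at −0.18 (−0.22 to −0.14), with 499 and 541 TPM. ATP5MC3 had 13287 and 17051, at −0.18 (−0.22 to −0.15), with 198 and 217 TPM. By counts ATP5MC1 was lower than the other genes of the ring, but with ratios centred on the median of genes of like GC content and length ATP5MC1 was at −0.28, ATP5MC3 at −0.28 and ATP5MC2 at 0.002. The TPM share of ATP5MC1 in the ring was 26.5% in the iMQT_020 library and 30.6% in the vehicle library, and the sum was 948 and 1093 TPM. ATP5MC2 was highest of the ring by TPM but ATP5MC3 by counts, so such shares depend on the unit.

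The 4 genes of the peripheral stalk lay between −0.18 and −0.07, with ATP5PO, the OSCP subunit, at 558 TPM (iMQT_020) and 569 TPM (vehicle). The small membrane subunits lay between −0.26 and −0.09. ATP5MPL, now named ATP5MJ, was the lowest of them with 4493 and 6067 counts, at −0.26 (−0.31 to −0.20), and 281 and 327 TPM. ATP5MF had 7120 and 9367 counts, at −0.22 (−0.26 to −0.17), with 624 and 707 TPM. Its span overlaps the read-through gene ATP5MF-PTCD1, and the reads of both summed gave −0.32. ATP5IF1, the inhibitor that keeps ATP synthase from running in reverse, had 3505 counts in the iMQT_020 library and 4555 in the vehicle library, at −0.20 (−0.27 to −0.14), with 228 and 240 TPM. Its ratio was within the range of the subunits it acts on.

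Subunits of the same complexes that are encoded by mitochondrial DNA were higher in the iMQT_020 library. MT-CYB, the cytochrome b of complex III, was at 4759 TPM (iMQT_020) and 1875 TPM (vehicle), a count ratio of 1.30. MT-CO1, MT-CO2 and MT-CO3 of complex IV were at 0.86, 0.64 and 0.49, and MT-ATP6 and MT-ATP8 of complex V, whose genes overlap, at 0.72 and 0.70. The 6 mitochondrial genes and the 44 nuclear genes did not overlap in ratio. All 6 mitochondrial genes were at least 25% higher, against 17.4% of all measured genes. Only MT-CYB was at least 2-fold higher, against 2.15% of all measured genes. Summed TPM of mitochondrial over nuclear genes was 2.08 in the iMQT_020 library and 0.719 in the vehicle library for complex III, 5.96 and 3.40 for complex IV, and 2.94 and 1.60 for complex V. When mitochondrially encoded and rRNA genes were left out of the scaling, the nuclear median stayed at −0.17.

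**Figure D3:**
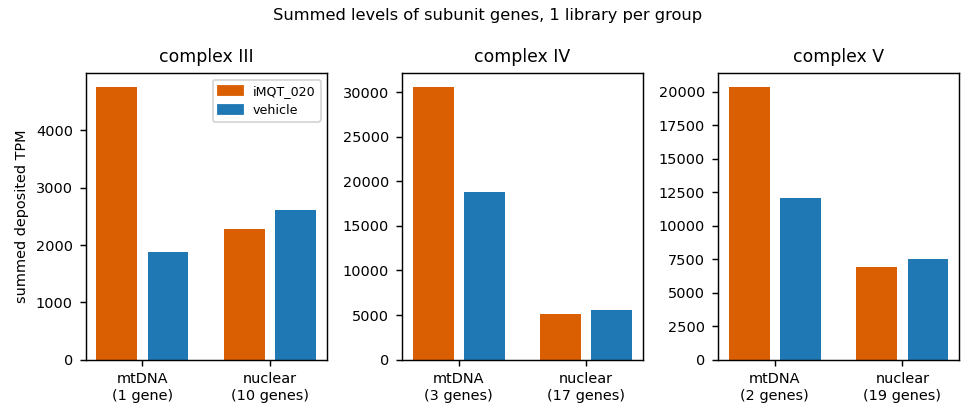
Summed deposited TPM of the subunits of complexes III, IV and V encoded by mitochondrial DNA and by nuclear genes, in the iMQT_020 library (left bar of each pair) and the vehicle library (right bar), n = 1 each; each panel has its own axis from 0. For complex III the mitochondrial sum is 4759 and 1875 TPM and the nuclear sum 2286 and 2608 TPM.

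The same summaries were made for related nuclear genes. The 37 nuclear subunits of complex I had a median of −0.17, with 33 below 0 (89.2%), and the 78 mitochondrial ribosomal protein genes had −0.17, with 69 below 0 (88.5%), against 52.7% of all genes. In complex I the ratios farthest from 0 were NDUFA11 and NDUFB10 at −0.47 each and NDUFA13 at −0.42, and among the ribosomal proteins MRPL34 and MRPS34 at −0.53 each and MRPS26 at −0.46. By counts the medians of all these lists were the same to 2 decimals. At least 20% lower were 9 complex I genes (24.3%) and 11 ribosomal protein genes (14.1%), against 21.8% of all genes. By TPM 70.3% of the complex I genes and 79.5% of the ribosomal protein genes were below 0. The share was 86.4% for the subunit genes and 47.6% for all measured genes. With ratios centred on GC content and length, as described below, the shares of these lists were 64.9%, 64.1% and 77.3%. Of all genes with both values, 49.8% were below 0 on that scale.

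Assembly factors, which help build the complexes without being part of them, were read against the 52.7% of all genes below 0 by counts and 47.6% by TPM. Of the 4 for complex II, 2 were below 0 by counts and by TPM, with SDHAF1, SDHAF3 and SDHAF2 at −0.54, −0.25 and 0.20. All 9 for complex III were below 0 by counts but 5 by TPM, and 4 counting intervals reached across 0. The ratios farthest from 0 were those of BCS1L, which inserts the Rieske protein, at −0.44, C16orf91 at −0.25 and UQCC3 at −0.20. For complex IV, 22 of 30 were below 0 by counts and 19 by TPM, with a count median of −0.11. TMEM177 was at −0.70, SCO2, which delivers copper, had 415 counts in the iMQT_020 library and 759 in the vehicle library, at −0.69 (−0.87 to −0.52), and PET100 was at −0.40. NDUFA4, counted in that list although it encodes a subunit of complex IV, was at −0.07. For complex V, 4 of 7 were below 0 by counts and 3 by TPM, with a count median of −0.04, and DMAC2L, ATPAF1 and TMEM70 were at −0.18, −0.13 and −0.11. None of these assembly genes was 2-fold apart, against 5.23% of all measured genes.

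Of 15 transcription factors and coactivators of nuclear respiratory genes, 14 were measured. By counts 9 were below 0 (64.3%, against 52.7% of all measured genes), with a median of −0.09 against −0.02 over all. By TPM 6 were below 0 (42.9%, against 47.6%), with a median of 0.02, as over all. The sign of the median thus turned with the unit, as it did for all measured genes. SP1 and PPARGC1B were at −0.41 and −0.35, and GABPA, which encodes the DNA-binding part of GABP, at 0.28. The gene spans of GABPA and the subunit gene ATP5PF overlap. GABPA had 4704 counts in the iMQT_020 library and 4383 in the vehicle library, while ATP5PF had 5070 and 6508, at −0.18 (−0.24 to −0.13). NRF1 and YY1 were at −0.03 and 0.10. PPARGC1A was not measured, with 34 and 21 counts.

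The unit changed the size of the difference. With deposited TPM, on log2(TPM + 1), 38 of 44 genes were below 0 (86.4%), against 47.6% of all measured genes, and the median was −0.11 against 0.02 over all. By counts these medians were −0.17 and −0.02, so both were higher by TPM. At least 20% lower by TPM were 4 genes, against 16.3% of all. With FPKM 40 of 44 were below 0, against 52.5% of all. In 17 of the 18 genes with 1 annotated transcript the TPM ratio lay above the count ratio by about 0.05. Genes with several transcripts ranged from −0.05 (SDHA) to 0.23 (SDHC). COX7A2L and COX4I1 each had 0.14, and ATP5F1A had 0.13. TPM divides by the length of the transcripts that the authors' software took the reads from, so for these genes the ratio also depends on that assignment.

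**Figure D4:**
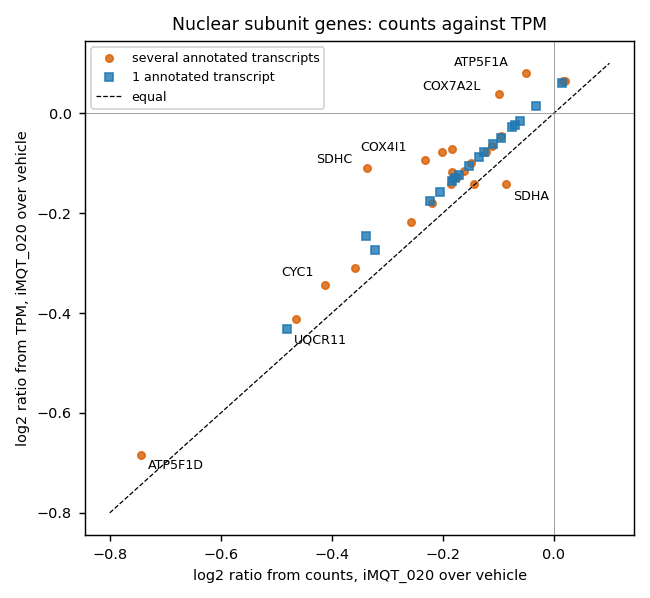
Log2 ratio, iMQT_020 over vehicle, from counts (horizontal axis) and from TPM (vertical axis) for the 44 measured nuclear subunit genes, by number of annotated transcripts; the dashed line marks equal ratios. Genes with 1 transcript lie on a line just above equality, while SDHC, COX7A2L, COX4I1 and ATP5F1A lie farther above and SDHA below.

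The ratio also moved with the sequence of the transcripts. The canonical transcripts of the subunit genes were short, with a median of 1005 bases, against 3215 over all measured genes, and 23 of the 44 were in the shortest of 10 bins of all genes by length. In that bin all 1418 genes together had a median log2 ratio of −0.20, and the 23 subunit genes had −0.18. Across the 44 genes, which are no independent replicates, Spearman's rho of the ratio was −0.52 with GC content and 0.38 with length, as a description. ATP5F1D, the lowest, had the highest GC content of the 44, at 69.5%, and in the bin of genes with the highest GC content, of 10 bins, the median over all genes was −0.31.

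With each ratio centred on the median of genes of like GC content and length, the median of the 44 was −0.06. Of these, 34 were below 0 (77.3%), against 49.8% of all genes with both values. The complexes then had medians of 0.03 (II), −0.11 (III), −0.05 (IV) and −0.05 (V). All 10 genes of complex III were below 0 on that scale, with UQCR11 at −0.30. In complex IV 8 of 11 were below 0, in complex V 14 of 18, and in complex II 1 of 4. ATP5F1D was also at −0.30, COX5A at −0.29, ATP5MC3 and ATP5MC1 at −0.28 each, and ATP5F1E at −0.28. The centring thus moved the median nearer to 0.

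**Figure D5:**
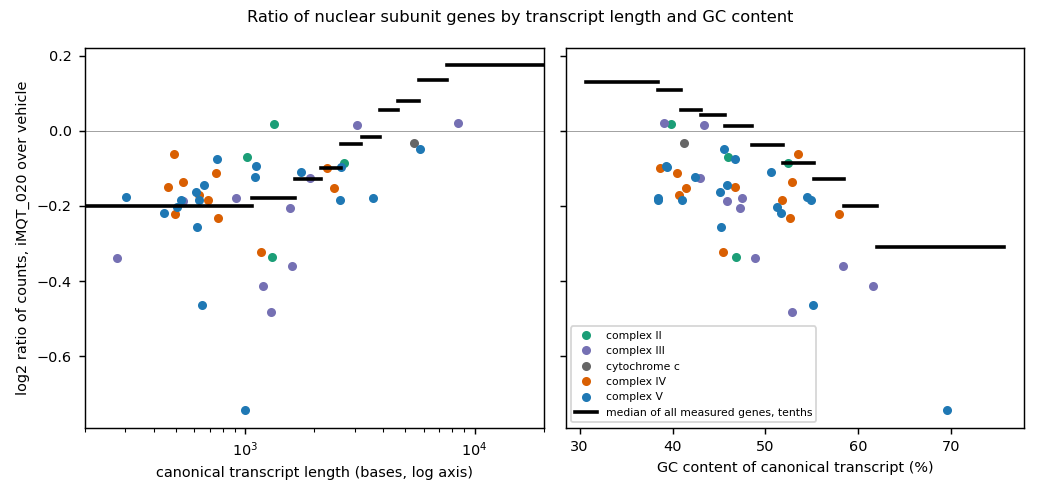
Log2 ratio of counts, iMQT_020 over vehicle, of the 44 measured nuclear subunit genes against the length (log axis) and GC content of the canonical transcript, coloured by complex; black bars are medians of all measured genes in 10 bins. Most subunit genes are in the shortest bins, where the median of all genes is −0.20 and −0.18, and the lowest point is ATP5F1D.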

How the data were processed

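RNA was sequenced from 1 library per treatment. Per the labels' protocols, HISAT2 with Bowtie2 mapped the reads to GRCh38. The submitters' processing notes also name StringTie and edgeR, with no role. How counts were made and whether strand was used was not given in the sources used here, and overlapping genes may share reads. Estimated counts were deposited by the authors as whole numbers, with FPKM and TPM that the authors had scaled by transcript length. A shorter deposited table repeats the FPKM of 20787 genes and added no value.

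Counts were scaled by TMM in edgeR 4.0.16 (R 4.3.3), with factors of 1.00 (iMQT_020) and 0.998 (vehicle). The log2 ratio used a prior count of 0.5 and a minimum of 50 counts in either library. Ratios of TPM and FPKM used log2(value + 1). GC content and length came from GENCODE 44 canonical transcripts, in 10 bins each, for 95.6% of measured genes and all 44 measured subunit genes. Gene positions came from RefSeq GRCh38.p14. Calculations used Python 3.11.15 and scipy 1.17.1 and were tested on simulated data.

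Named by rule were complex II, CYC1, CYCS, ATP5IF1, isoform pairs, and the 5 ratios farthest from 0 and 2 highest TPM per complex, and in other lists the 3 ratios farthest from 0. Counts of any measured subunit gene could be named. FPKM is proportional to TPM within a library and is printed for ATP5F1D and SDHA only. NDUFA4, NRF1, YY1 and PPARGC1A were named beyond the rule after their values were seen. Ratios or TPM were also given beyond the rule for UQCRC2, UQCRFS1, UQCRB, UQCR10, ATP5F1A, ATP5F1C, ATP5F1E, ATP5PF, ATP5PO, ATP5ME and ATP5MD. The subunit genes and lists were chosen with earlier results of these data known. Alternatives included DESeq2 1.42.0 size factors, other filters and other units.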

Additional observations from a re-analysis of the deposited data

Results flagged for a closer look

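Of 6 pseudogene rows and 2 read-through rows that were measured outside the comparison, a pair had a counting interval wholly above 0. They were named for that reason, and 35.0% of all measured genes had such an interval. CYCSP55, a pseudogene of CYCS, had 216 counts in the iMQT_020 library and 194 in the vehicle library, a log2 ratio of 0.33 (0.04 to 0.62). SLMO2-ATP5E, a read-through row that takes in ATP5F1E under its older name, had 930 and 940 counts, a log2 ratio of 0.16 (0.03 to 0.29), whereas ATP5F1E itself was at −0.18. Neither difference has a replicate check.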

How the results depend on the processing

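No paired analysis was possible because each group has 1 library, and leaving out a library was not possible for the same reason. Under median of ratios, total counts, upper quartile, a minimum of 200 counts, a prior count of 5, scaling without mitochondrially encoded and rRNA genes, and counts summed with read-through and pseudogene rows, the medians of all 44 genes and of each complex stayed within the median counting interval of their genes. With no filter 1 gene was 2-fold apart, ATP5MGL with 0 and 1 counts, and with a rule of 20% lower or 25% higher 7 were apart. Deposited TPM moved the medians of complexes IV and V to −0.10 and −0.12, with either pseudocount. The median of all measured genes was also higher by TPM, at 0.02 against −0.02 by counts. On TPM, ATP5F1A (0.0804, or 0.0806 with a pseudocount of 0.1), COX7A2L (0.0389 or 0.0393) and CYCS (0.014 or 0.0141) turned above 0, and on FPKM ATP5F1A (0.0346) did. Centring on GC content and length gave medians of −0.0628 (all 44), −0.105 (complex III), −0.047 (complex IV), −0.0522 (complex V) and 0.0257 (complex II, reversed). It also turned 9 genes above 0, namely COX6B1 (0.123), SDHB (0.0828), ATP5PO (0.0784), COX6A1 (0.0497), SDHA (0.0132), ATP5ME (0.01), ATP5MD (0.01), COX7A2 (0.0032) and ATP5MC2 (0.002). Alternatives added after the data were seen kept to the 37 measured genes that overlap no other measured gene row, with a median of −0.17, or to the 18 with 1 annotated transcript, with −0.14, 17 of them below 0, and a complex V median of −0.10. The cause of these shifts was not tested. With 1 library per group, depth limits only the counting error, and variation between cultures is unknown.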

Other observations

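ATP5MF-PTCD1, a read-through row that the choice of genes left out, had 507 counts in the iMQT_020 library and 1428 in the vehicle library, a log2 ratio of −1.32 (−1.47 to −1.17). Summing it with ATP5MF gave −0.32, against −0.22 for ATP5MF alone. Pseudogene rows named after these genes numbered 113, of which 74 had 0 counts in both libraries, and together they held 0.502% of the counts of the subunit genes in the iMQT_020 library and 0.452% in the vehicle library. SDHAP1, SDHAP2 and SDHAP3, transcribed copies of SDHA, had 433, 431 and 448 counts (iMQT_020) against 478, 481 and 551 (vehicle), with ratios between −0.12 and 0.03.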
